A study of Equus caballus with 4 samples.

Results

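The p38 mitogen-activated protein kinases, the kinases that switch them on, their substrate kinases and the phosphatases that switch them off were examined in equine satellite cells (ESC) that were differentiating with or without HMB, which is made from leucine in the body. Members were taken by symbol: 10 gene names were looked for among the 22446 names of genes and transcripts on the array, and 8 were found, with 10 of the 43603 probes. The names *MAPK13* and *MAPKAPK2* were not among the gene names of the files. Of the 8 genes, 7 had signal enough for a test, with 9 probes between them.

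Messenger RNA was measured on 4 two-colour arrays of 60-base horse probes, all on 1 slide. On each array, cells given HMB for 24 h from day 2 of differentiation were labelled with Cy5, and control cells of the same stage without HMB were labelled with Cy3. The titles and source names of the samples were used for this. The description of every sample instead calls the Cy5 cells GO-treated, against controls without HMB, so the records differ on the treatment. The dose is 50 µM in the methods and 50 µg in the treatment protocol. The cells had been isolated from the semitendinosus muscle of 6 colts aged 6 months, with a preplating step against fibroblasts.

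Which colt is on which array is not given in the sources used here, so P values measure the spread between these 4 arrays. The dyes were never exchanged, so any dye bias is part of each ratio. All values below are log2 ratios of HMB-treated over control cells after the lowess dye normalisation of the authors. A mean over the arrays was tested against 0 with limma, and an adjusted P of at most 0.05 over all 27383 tested probes was taken as the threshold. As the RNA came from whole cultures, fewer cells of a type and less RNA per cell cannot be told apart.

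The p38 kinases are switched on by stress signals, cytokines and cell contact through a chain in which a MAP3 kinase activates a MAP2 kinase such as *MAP2K3* or *MAP2K6*. They then phosphorylate transcription factors and further kinases, among them MK2 and MK3, the products of *MAPKAPK2* and *MAPKAPK3*, while dual-specificity phosphatases remove the activating phosphates. In muscle precursor cells, p38 activity is needed for differentiation, in part through the MEF2 factors. All of these steps are changes of protein activity, and the arrays measured messenger RNA only.

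Of the 7 tested genes, 2 passed the threshold, *MAPKAPK3* and *DUSP10*, and both fell in HMB-treated cells. By probe, 3 of 9 passed. Among all tested probes 22.8% passed, and among the 14287 named genes and transcripts, each taken by its brightest tested probe, 22.2% did, 10.9% higher and 11.3% lower with HMB. A count of 2 in 7 is near that background and is therefore no result about the members as a group. The median of the 7 genes was -0.12, compared with 0.02 for all named genes, whose quartiles were -0.13 and 0.16.

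**Figure D1:**
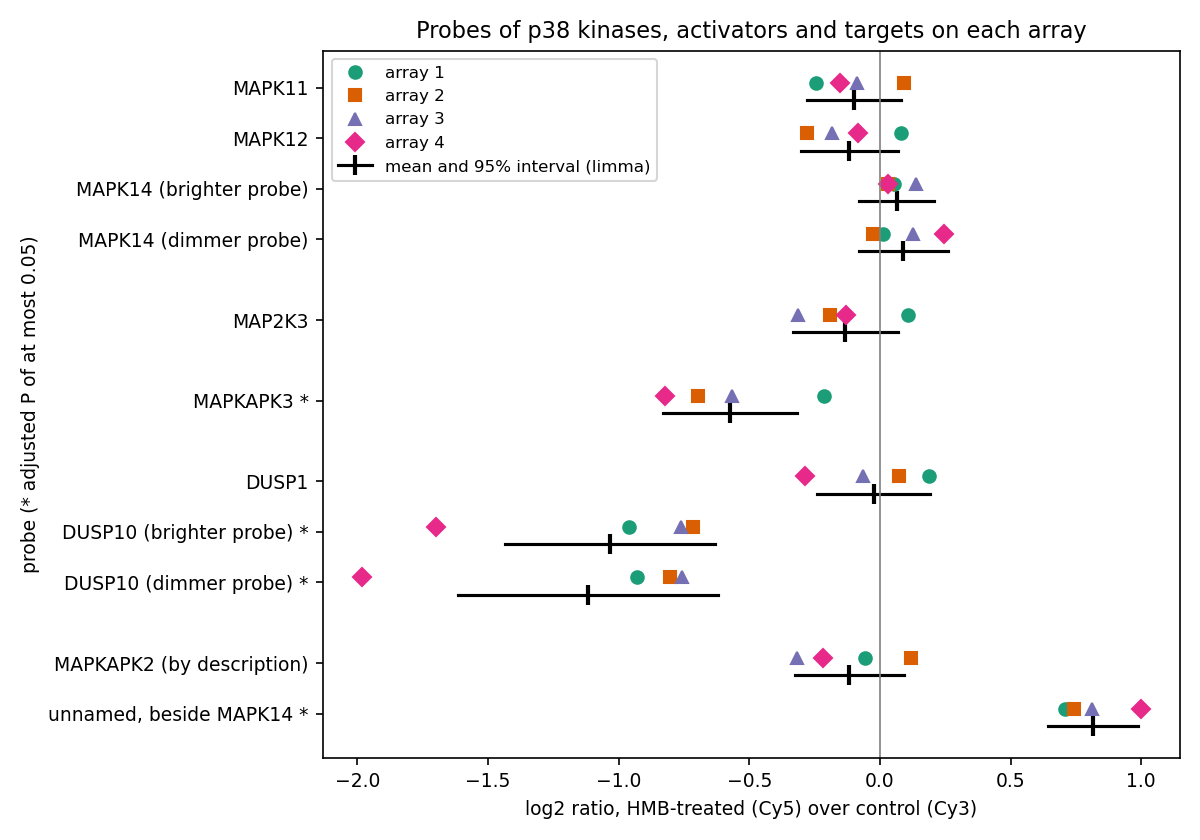
Log2 ratios of HMB-treated over control cells (horizontal axis) for each tested probe of the members (vertical axis), with 1 symbol per array and, below the symbols, the mean and its 95% interval from limma. Both *DUSP10* probes and *MAPKAPK3* lie below 0 on all 4 arrays, while the brightest of the unnamed probes beside *MAPK14* lies above 0 on all 4.

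*MAPK14* encodes p38α, the form needed for the differentiation of myoblasts. The files place its 2 probes on different transcripts, and the sequences are shown because they separate these transcripts. The brighter probe (ENSECAT00000015735) has its 60 bases spread over 14596 positions, chr20:29510873-29525468 on EquCab1, so it reads across an intron. The dimmer one (ENSECAT00000015606) lies in an unbroken stretch inside that span, at chr20:29521142-29521201. Both are on the plus strand.
MAPK14, brighter probe: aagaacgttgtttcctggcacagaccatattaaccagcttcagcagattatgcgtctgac
MAPK14, dimmer probe: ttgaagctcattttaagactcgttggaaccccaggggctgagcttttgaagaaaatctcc

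The brighter probe of *MAPK14* had ratios of 0.05, 0.03, 0.14 and 0.03 on arrays 1 to 4. The dimmer probe had 0.01, -0.03, 0.13 and 0.24. The values of both probes thus lay close to 0 on most arrays, with array 4 standing highest for the dimmer probe. The means were 0.06 (95% CI -0.08 to 0.21, adjusted P = 0.468) and 0.09 (95% CI -0.08 to 0.26, adjusted P = 0.39), and the brighter probe was at 0.02 after normexp and loess (0.797). The difference between the probes within arrays averaged -0.03 with an SD of 0.13. The exact two-sided sign-flip test gave P = 1 and could not have gone below 0.125 with 4 arrays, so it does not show whether the transcripts respond alike.

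*MAPK11*, which encodes p38β, and *MAPK12*, which encodes p38γ, a form abundant in skeletal muscle, each had 1 probe. Ratios of *MAPK11* were -0.25, 0.09, -0.09 and -0.15 on arrays 1 to 4. Those of *MAPK12* were 0.08, -0.28, -0.19 and -0.09. Each gene was below 0 on 3 of 4 arrays, and the array above 0 was array 2 for *MAPK11* and array 1 for *MAPK12*. Neither mean passed the threshold, at -0.10 (95% CI -0.28 to 0.08, adjusted P = 0.370) and -0.12 (95% CI -0.30 to 0.07, adjusted P = 0.308). These intervals leave room for a fall of up to 0.28 and 0.30 on the log2 scale. With 1 array left out, *MAPK11* lay between -0.16 and -0.05 and *MAPK12* between -0.18 and -0.06, and without lowess *MAPK11* was at -0.23 (adjusted P = 0.0786).

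Beyond the last *MAPK14* probe the array carries 5 probes without a gene name. They were chosen after their values were seen, and they are not counted among the members. They lie at chr20:29559924-29560243, which is 34456 bases further on and before the first probe of *BRPF3*. In the RefSeq table used for names (assembly TB-T2T), *MAPK13*, the gene for p38δ, is the protein-coding gene between *MAPK14* and *BRPF3*, but the files do not name these probes, and they were not aligned to a genome here. The 5 probes are not independent, since each spans 314 positions with its 60 bases and all share a core of 54 bases. The probes at the start and the end of the set are shown, with the shared core in capitals.
unnamed, start of the set: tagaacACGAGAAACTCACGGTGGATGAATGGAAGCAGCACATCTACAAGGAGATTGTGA
unnamed, end of the set: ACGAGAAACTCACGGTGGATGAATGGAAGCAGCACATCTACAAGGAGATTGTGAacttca

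On array 1 the ratios of the 5 unnamed probes lay between 0.66 and 0.77, and on array 2 between 0.74 and 0.85. They were between 0.73 and 0.85 on array 3 and between 0.96 and 1.04 on array 4. All were above 0 on every array, with array 4 the highest. The means were between 0.81 and 0.87, or 1.75- to 1.83-fold, and all 5 passed the threshold with adjusted P values between 0.0014 and 0.00206. Leaving out any array kept all 5 past it. In the methods' t-test, which estimates the variance of every probe separately, 4 of them passed (adjusted P up to 0.0507). That name is used here for the student test that a supplementary table gives. With the channels compared without pairing, 3 passed (adjusted P up to 0.0582). Within arrays, the brightest of these probes exceeded the brighter *MAPK14* probe by 0.65, 0.71, 0.68 and 0.97, a mean of 0.75 with an SD of 0.15. As these probes were chosen by their values, no P value is given for this difference.

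Of the activating kinases, *MAP2K3* (ENSECAT00000024114, chrUn:247031076-247031135) encodes MKK3, which activates p38 by phosphorylation. Its ratios were 0.11, -0.19, -0.32 and -0.13 on arrays 1 to 4. It was thus below 0 on all arrays except array 1. The mean of -0.13 (95% CI -0.33 to 0.07) did not pass, with an adjusted P = 0.286, and it was at -0.21 without array 1 (0.0932) and -0.07 without array 3 (0.669). *MAP2K6*, which encodes the closely related MKK6, was well above background on array 2 only, in both channels, so it was not tested and no ratio is given for it.

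*MAPKAPK3* (ENSECAT00000008822) encodes MK3, a kinase that p38 phosphorylates and that acts with MK2 on heat shock proteins and on proteins binding messenger RNA. Its probe lies at chr16:36658780-36658839 on the minus strand. The sequence is shown because this is a member that fell. The capitals mark 5 consecutive codons for basic residues in the only reading frame of the probe that holds no stop codon, and MK3 is known to carry a basic nuclear localisation signal near its end.
MAPKAPK3: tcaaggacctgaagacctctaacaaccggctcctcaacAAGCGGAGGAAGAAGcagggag

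In control cells, the log2 signal of *MAPKAPK3* was 6.79, 6.76, 6.82 and 6.98 on arrays 1 to 4. In HMB-treated cells it was 6.57, 6.07, 6.25 and 6.16. All HMB values lay under all control values, and the control values differed less among themselves (SD 0.10) than the HMB values (SD 0.22). The ratios were -0.21, -0.70, -0.57 and -0.82, so the fall was smallest on array 1. Their mean was -0.58 ± 0.26 (SD, *n* 4), which is 0.671 of the control level (95% CI 0.562 to 0.801), with an adjusted P = 0.0150. The call was lost without array 2 (adjusted P = 0.0605) and without array 3 (0.0551), in the methods' t-test (0.114) and with no filter on dim probes (0.0769), while the ratio stayed between -0.70 and -0.42 in all settings. *MAPKAPK3* ranked 675 from the lowest among the 14287 genes, within the lowest 4.72%.

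For the related *MAPKAPK2*, the description of 5 probes, but not their name, holds the gene. They are listed apart because their name is not that of a member. Shifted by single bases along chr5:2965970-2966033, they are repeats of nearly the same measurement. Their ratios on arrays 1 to 4 were between -0.09 and -0.02, 0.12 and 0.15, -0.35 and -0.29, and -0.22 and -0.21. They were above 0 on array 2, where *MAPKAPK3* was at -0.70. The means were between -0.12 and -0.10, with adjusted P values between 0.353 and 0.449, and the intervals reached from -0.34 to 0.12. The ratio of *MAPKAPK3* was lower than that of the brightest *MAPKAPK2* probe on all 4 arrays, by -0.16, -0.82, -0.25 and -0.61, a mean of -0.46 with an SD of 0.31. The exact sign-flip test of this difference gave a two-sided P = 0.125, again the smallest possible, so it could not pass a threshold of 0.05. *MAPKAPK3* was itself below 0 on all 4 arrays, so the test adds no support to its fall.

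Of the phosphatases, *DUSP10* encodes MKP5, which removes phosphate from p38 and JNK. Its 2 probes belong to 1 transcript (ENSECAT00000010659) and adjoin each other on the minus strand without a gap, at chr30:1861686-1861745 for the brighter and chr30:1861746-1861805 for the dimmer. The starts of both sequences, 30 bases each, are shown because this gene had the lowest ratio among the members and because they share no site.
DUSP10, brighter probe: gtttcatactctggattactttttccccct
DUSP10, dimmer probe: aaatggtctaagaacccttcacgtcctttt

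The brighter *DUSP10* probe had log2 signals of 9.12, 9.05, 8.71 and 9.00 in control cells on arrays 1 to 4. In HMB-treated cells the signals were 8.16, 8.34, 7.95 and 7.31. Every HMB value was under every control value, and array 4 had the lowest HMB signal while its control signal was among the other controls. The ratios were -0.96, -0.72, -0.76 and -1.70. The mean was -1.03 ± 0.46 (SD, *n* 4), which is 0.488 of the control level (95% CI 0.370 to 0.645), or 2.05-fold lower, with an adjusted P = 0.00998.

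The dimmer *DUSP10* probe gave -0.93, -0.80, -0.76 and -1.98, with a mean of -1.12 ± 0.58 and an adjusted P = 0.0151. Arrays 1 to 3 lay close together in both probes and array 4 stood below them. Within arrays the probes differed by a mean of 0.08 with an SD of 0.14 (exact sign-flip test, two-sided, P = 0.5). Without array 4 the mean of the brighter probe was -0.81 and still past the threshold (adjusted P = 0.00642), and the same held without each other array (highest adjusted P = 0.0374). The call was lost in the methods' t-test (adjusted P = 0.110) and with no filter on dim probes (0.0732). *DUSP10* ranked 139 from the lowest among the 14287 genes, within the lowest 0.973%.

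**Figure D2:**
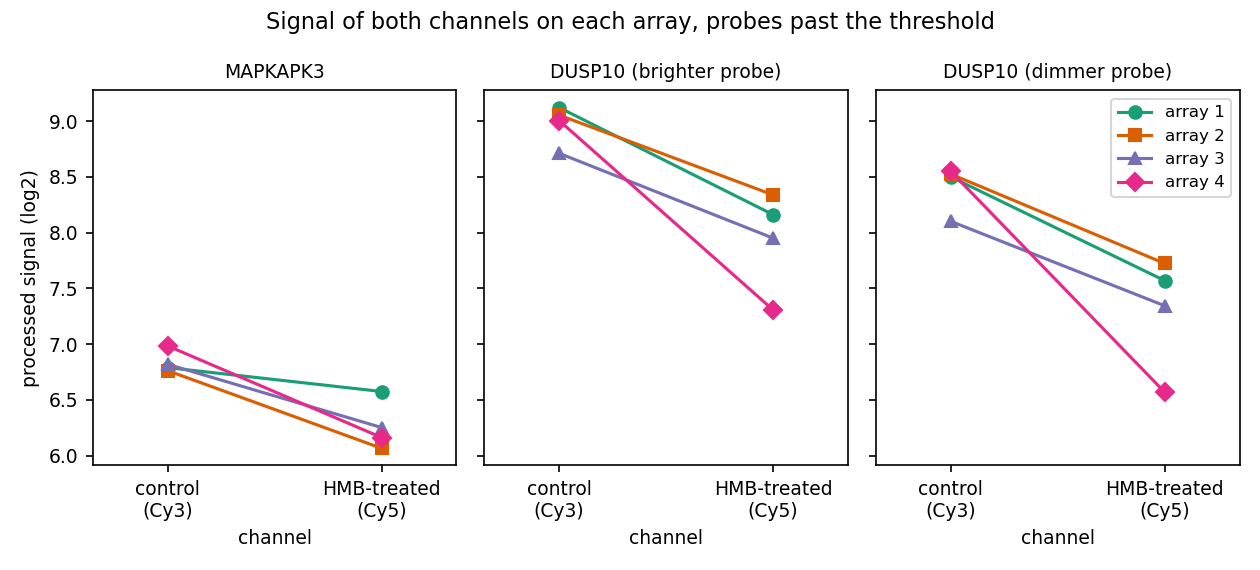
Processed log2 signals (vertical axis) of control cells in Cy3 and HMB-treated cells in Cy5 (horizontal axis) for *MAPKAPK3* and both *DUSP10* probes, each line joining the channels of 1 array. Every line runs downwards, and that of array 4 falls furthest for *DUSP10*; levels are to be read within a panel only.

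*DUSP1* encodes MKP1, an early-response phosphatase of p38 and JNK. Its probe (ENSECAT00000010174, chr14:7915352-7915411) had ratios of 0.19, 0.07, -0.07 and -0.29. The arrays were split, with 2 above and 2 below 0. The mean of -0.02 (95% CI -0.24 to 0.19, adjusted P = 0.866) changed sign to 0.03 when arrays were only centred by their medians, with no lowess, and to 0.06 without array 4. The ratio of *DUSP10* was lower than that of *DUSP1* by -1.15, -0.79, -0.70 and -1.41 on arrays 1 to 4, a mean of -1.01 with an SD of 0.33. The exact sign-flip test of this difference gave a two-sided P = 0.125, the smallest that 4 arrays allow.

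Taking the 5 tested genes that did not pass together, *MAPK11*, *MAPK12*, *MAPK14*, *MAP2K3* and *DUSP1* by their brightest probes, the 95% intervals lay between -0.33 and 0.21. Smaller changes than these bounds may be present, as a P value that misses the threshold does not show that a gene did not change. For all 9 tested probes, both the Cy3 and the Cy5 signal exceeded background clearly on every array.

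**Figure D3:**
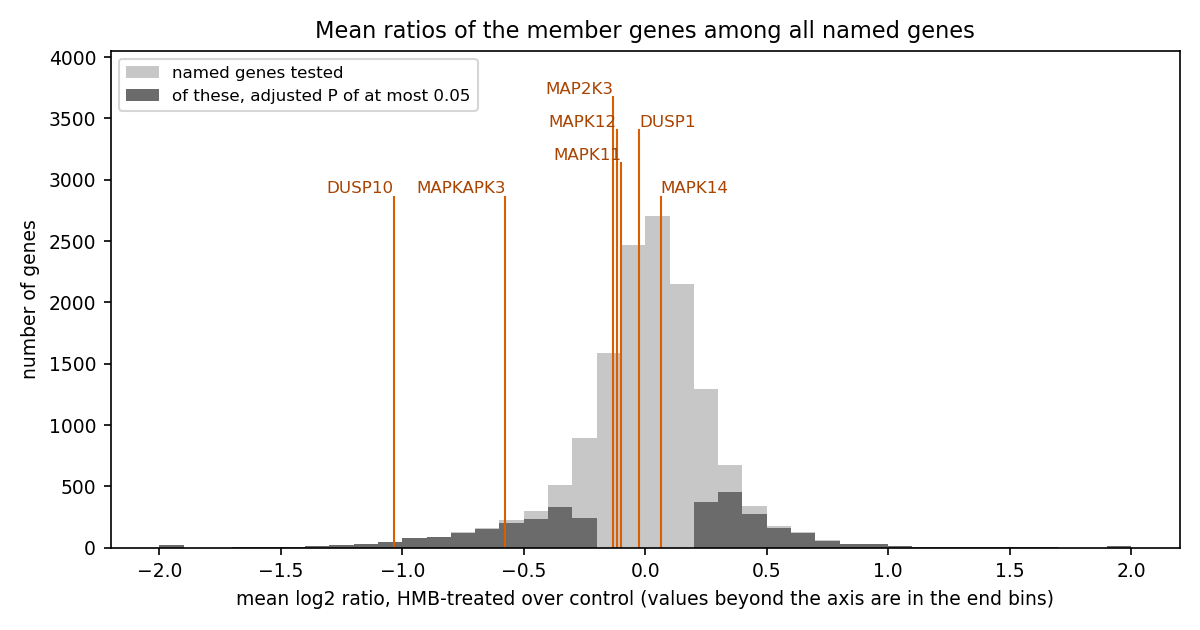
Number of named genes (vertical axis) by mean log2 ratio of HMB-treated over control cells (horizontal axis), all 14287 tested in light grey and those past the threshold in dark grey, with the 7 member genes as vertical lines. *DUSP10* and *MAPKAPK3* lie in the lower tail at -1.03 and -0.58, and the other 5 lie near the middle.

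Around these members, 7 lists of p38 pathway genes and 1 of the neighbouring ERK and JNK pathways were tallied, holding 115 genes, of which 94 were tested. Of these, 27 passed (28.7%), 8 higher and 19 lower, against the 22.2%, 10.9% and 11.3% of all named genes given above. Without the myogenic list, 18 of 83 passed (21.7%), so the larger share came from that list. The median of the 94 was -0.07. Of the 27, 3 entered the test through 1 channel only, *IL1R1*, *TAB1* and *DUSP9*, and with both channels required 24 of 89 passed, 6 higher and 18 lower. Without array 2, 12 of the 27 passed, and 12 did so without array 3, while 8 passed whichever array was left out, namely *CDKN1A*, *CRYAB*, *DUSP6*, *MYF5*, *MYH3*, *NOS2*, *TNNT1* and, with the limit just given, *IL1R1*. In the methods' t-test 2 genes of the lists passed.

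Upstream of the kinases, 22 of 26 receptors, adaptors and MAP3 kinases were tested. Of these, 5 passed (22.7%, near the 22.2% of all named genes), 3 above 0 and 2 below, with a median of -0.03. This balance depended on the setting, with 2 above and 5 below 0 after normexp and loess, 1 above and 2 below with both channels required, and 0 with the channels compared without pairing (5 at an unadjusted P under 0.05). The genes that fell were *GADD45A* (-0.61, adjusted P = 0.0231) and *GADD45G* (-0.50, 0.0111), whose products bind and activate MAP3K4. The thrombin receptor gene *F2R* rose (0.34, adjusted P = 0.0124), with 1 of its 2 tested probes past the threshold. The interleukin-1 receptor gene *IL1R1* (0.81, 0.0105) and *TAB1* (0.60, 0.0312), whose product binds TAK1 and p38α, also passed, but their control signals were well above background on only 2 and 1 of 4 arrays. They entered the test through the channel in which they were higher, so they are not counted here as having risen. After normexp and loess, *IL1R1* was at 0.23 and not past the threshold (adjusted P = 0.0544). *MAP3K7*, the gene for TAK1, was at -0.28 (adjusted P = 0.0676), *MAP3K5* at 0.21 (0.0976) and *MAP2K4*, which activates both p38 and JNK, at -0.17 (0.111), none of them past the threshold. In other settings *MAP3K5* passed without lowess (0.35, 0.0226) and *MAP3K7* after normexp and loess (-0.30, 0.0349). The call of *GADD45G* was lost without array 2, that of *GADD45A* without array 3, that of *F2R* without either of these, and that of *TAB1* without array 1, 2 or 4.

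Among 4 tested genes for other kinases activated by p38, *MKNK2* rose (0.48, adjusted P = 0.0254), a call that was lost without array 2, 3 or 4, and after normexp and loess it was at 0.25 (0.0527). It encodes a kinase of the translation factor eIF4E. *MAPKAPK5* was at 0.16 (adjusted P = 0.128), and the median of the list was 0.15. Of 7 other phosphatase genes that were tested, 0 passed in limma and 0 in the methods' t-test, with 1 at an unadjusted P under 0.05 in each, and their median was -0.07. The list had 2 lower genes with no filter on dim probes and 1 lower without array 1. Without array 3 it had 1 higher, *DUSP4* (0.78, adjusted P = 0.0442), which was at 0.59 (0.0661) on all arrays with its control signal well above background on 2 of 4.

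Of the substrate transcription and chromatin factors, 19 of 20 were tested and 5 passed (26.3%, against 22.2% of all named genes). Of the 5, 2 were higher and 3 lower, and the median of the list was -0.01. *MEF2C* (-0.56, adjusted P = 0.0165) and *MEF2A* (-0.36, 0.0174), factors through which p38 acts on muscle genes, fell, and *MEF2D* was at -0.22 (0.126). *EZH2*, a histone methyltransferase, rose (0.46, adjusted P = 0.0479), and *ATF2*, a classical p38 substrate, was at 0.12 (0.307). None of the 5 calls of this list held whichever array was left out, and 0 of the 5 held in limma without array 3. At an unadjusted P under 0.05, limma without array 3 gave 7 genes of this list. The methods' t-test on all arrays gave 0 past the threshold and 4 at an unadjusted P under 0.05.

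For the substrates of MK2 and the proteins that bind AU-rich messenger RNAs, 8 of 12 genes were tested, of which 3 fell and 0 rose, with a median of -0.17. The small heat shock protein genes *CRYAB* (-1.02, adjusted P = 0.00297) and *HSPB1* (-0.41, 0.0190) and the kinase gene *EEF2K* (-0.35, 0.0212) were those that fell. Without the lowess normalisation, *HSPB1* turned to 0.16 (adjusted P = 0.114) and the median of the list to 0.03. Without array 2 or array 3, *CRYAB* alone of these 3 was still past the threshold. Among 9 tested AU-rich messenger RNAs that p38 stabilises, 1 passed, *NOS2*, at -1.24, and the median was 0.05. Without lowess 3 passed, 1 higher, *CCL2* (0.63, adjusted P = 0.0128), and 2 lower, with *IL6* (-0.55, 0.0333) beside *NOS2*. *CCL2*, at 0.45 in the main analysis, also passed without array 3 (0.64, adjusted P = 0.0324).

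**Figure D4:**
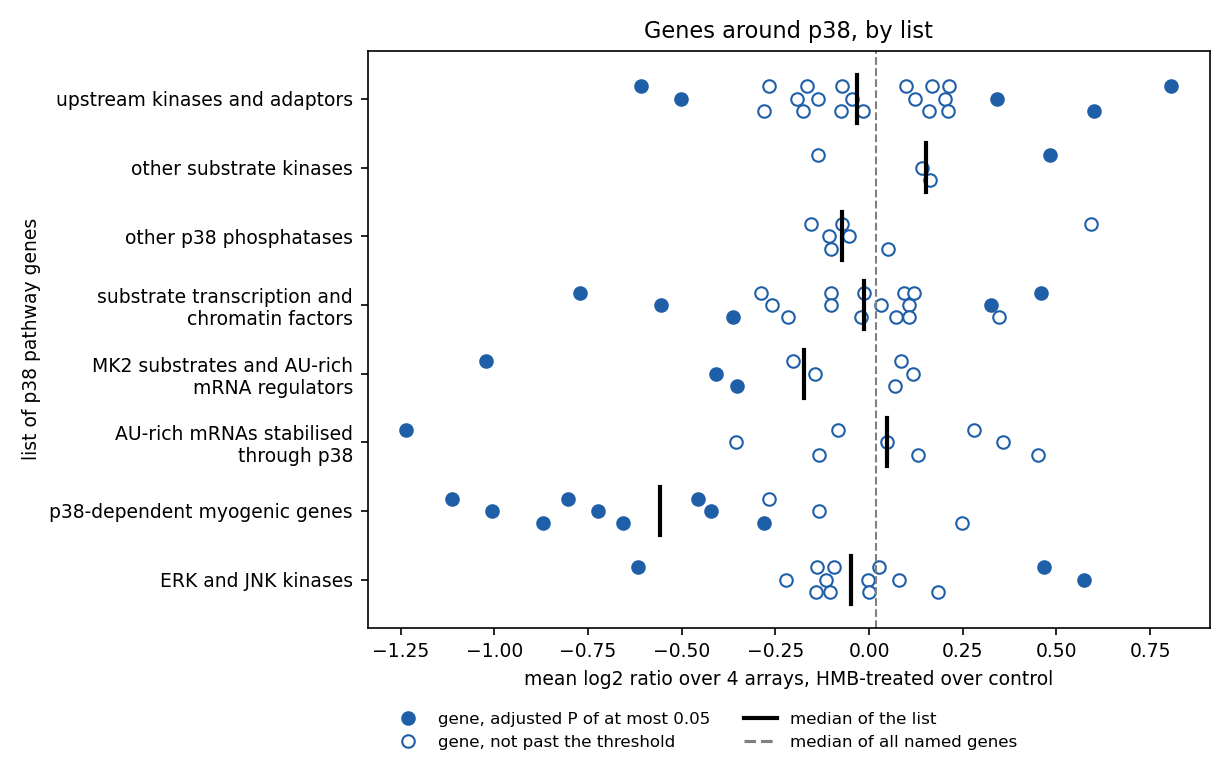
Mean log2 ratio of HMB-treated over control cells (horizontal axis) for each tested gene of the 8 lists (vertical axis), filled where the adjusted P was at most 0.05, with the median of each list as a black bar and that of all named genes, 0.02, as a dashed line. The myogenic list has its median at -0.56, and the other medians lie between -0.17 and 0.15.

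A list of 13 myogenic genes around p38 includes the cytokine gene *TNF* of the AU-rich list. It was not sorted by the direction in which p38 acts on each gene, so falls in it are no measure of p38 activity. Of the 13 genes, 12 were tested. Of these, 9 fell and 0 rose, and the median was -0.56. The medians on arrays 1 to 4 were -0.29, -0.55, -0.69 and -0.84, so all arrays were below 0 and array 1 was nearest to it. The genes that fell were those for the embryonic myosin heavy chain *MYH3* (-1.11, adjusted P = 0.00846), *MYL1* (-0.66), *TNNT1* (-0.87) and *CKM* (-0.80) of the contractile and energy apparatus, the factors *MYF5* (-1.01, adjusted P = 0.00157), *MYF6* (-0.28), *MYOD1* (-0.46) and *MYOG* (-0.42), and the cell cycle inhibitor *CDKN1A* (-0.72). Of the 9, 5 passed without array 2, 4 without array 3 and 4 whichever array was left out. Without array 3 the cell cycle gene *CCND1*, at 0.25 on all arrays, passed as higher (0.41, adjusted P = 0.0359). The list had 5 genes past the threshold with the channels compared without pairing, 1 with no filter on dim probes and 0 in the methods' t-test, where 8, 9 and 8 had an unadjusted P under 0.05. *MYOD1* passed with 1 of its 2 tested probes. Without lowess, the median was -0.42, and *MYH3* was at -0.37 and no longer past the threshold (adjusted P = 0.0522).

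The neighbouring ERK and JNK pathways had 14 of 18 genes tested, and 3 passed (21.4%, near the 22.2% of all named genes). Of the 14, 2 passed above 0, 1 passed below 0 and 11 did not pass, with a median of -0.05. Of the kinase genes, *MAPK3* was at -0.22, *MAPK8* at -0.10 and *MAPK9* at 0.08, with adjusted P values between 0.169 and 0.467. Without array 1, *MAPK3* passed as lower (-0.35, adjusted P = 0.0341). All 3 genes that passed encode phosphatases of ERK: *DUSP6* (0.57, adjusted P = 0.0109) and *DUSP7* (0.47, 0.0130) rose, and *DUSP9* was lower (-0.62, 0.0144). The phosphatase gene *DUSP5* of the same list did not pass (-0.11, adjusted P = 0.387). *DUSP9* entered the test through the control channel only, its HMB signal being well above background on 2 of 4 arrays. It was at -0.14 after normexp and loess (adjusted P = 0.149) and did not pass with the channels compared without pairing (0.454). The calls of *DUSP7* and *DUSP9* were lost without array 2.

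Markers of muscle moved in the same direction as *DUSP10* and *MAPKAPK3*. Of 10 muscle markers, 7 were also in the myogenic list, so they are not separate evidence. In all, 9 were tested and 8 fell, 5 of them already counted in that list, with a median of -0.80, but -0.48 without lowess. The count was 5 without array 2, 3 or 4, 1 with no filter on dim probes and 0 in the methods' t-test, where 8 and 7 had an unadjusted P under 0.05. The summed signal of these 9 in HMB-treated cells was 0.733, 0.501, 0.433 and 0.377 of that in control cells on arrays 1 to 4, *MYH3* having the brightest probe, and 0.941, 0.760, 0.704 and 0.613 without lowess. As with *MAPKAPK3*, the ratio was nearest to control on array 1 and furthest from it on array 4. The brighter *DUSP10* probe was also furthest from control on array 4, but it was nearest to control on array 2. *PAX7*, a defining marker of satellite cells, did not pass the filter on dim probes.

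Of 9 fibroblast markers, 8 were tested and 2 rose, *PDGFRA* (1.53, adjusted P = 0.00358) and *FAP* (0.42, 0.0185), of which *FAP* was lost without array 1, 2 or 3. In the methods' t-test 0 passed, with *PDGFRA* at an adjusted P = 0.0775 and 2 genes at an unadjusted P under 0.05. *COL1A1* was at -0.54, passed as lower without array 1 (-0.82, adjusted P = 0.0319) and turned to 0.11 without lowess (0.670). Without lowess, 6 of the 8 passed, and the median of the fibroblast list, -0.05, became 0.66. Its summed signal in HMB-treated cells was 1.21, 0.892, 0.878 and 0.678 of the control, with *COL1A2* the brightest. Without lowess the sums were 1.79, 1.62, 1.80 and 1.41, and *COL1A2* turned from -0.20 to 0.86 (adjusted P = 0.00108), so the direction of this list rests on the normalisation. None of 5 endothelial and 4 adipocyte markers passed the filter. Of 7 leukocyte markers, 3 passed the filter and *PTPRC* was higher (0.28, adjusted P = 0.0374), but of its 8 tested probes 6 were higher, 1 was lower and 1 did not pass. The call was lost whichever array was left out and for the mean of its tested probes (0.13, 0.212). *CD68* was at -0.29 and below 0 on all arrays (adjusted P = 0.120), *CD14* was at 0.02 (0.868), and the median was 0.02. The part of these cell types in the falls of *DUSP10* and *MAPKAPK3* was not tested.

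**Figure D5:**
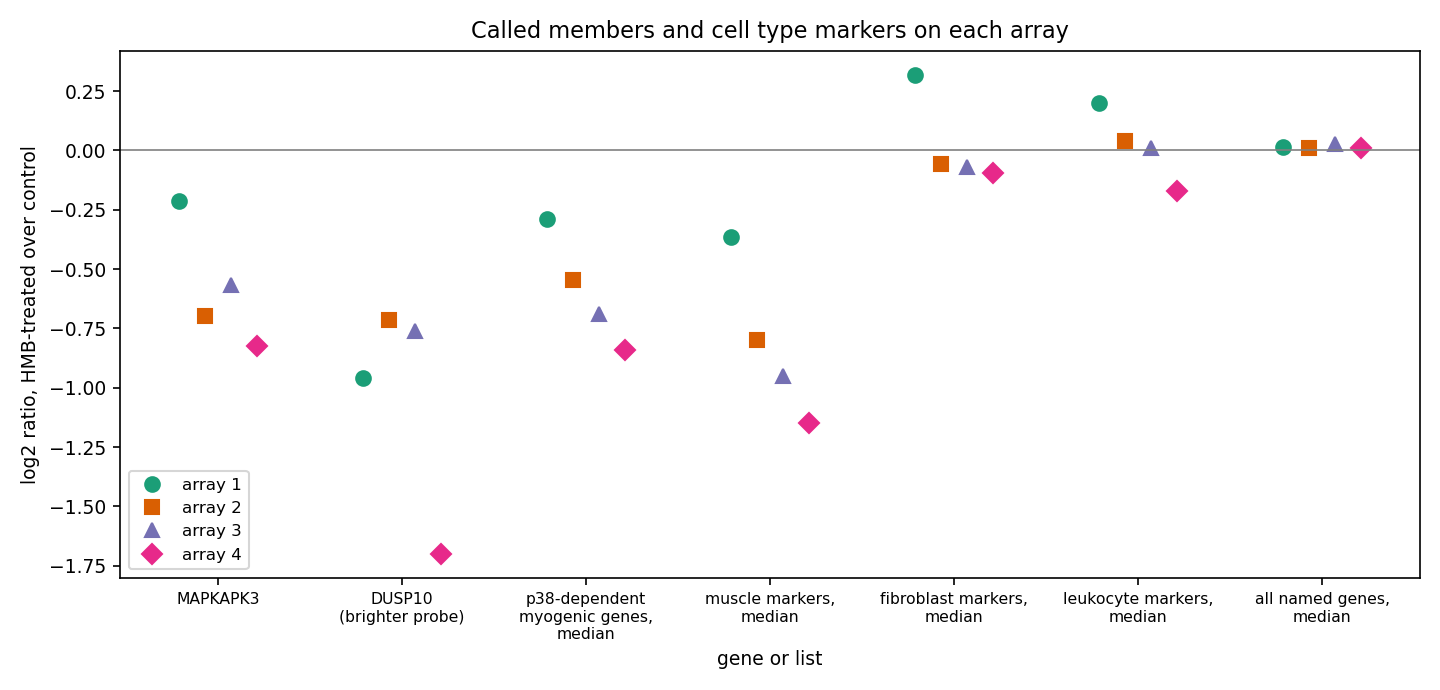
Log2 ratios of HMB-treated over control cells (vertical axis) on each of 4 arrays for *MAPKAPK3* and the brighter *DUSP10* probe, and medians of the myogenic list, of 3 marker lists and of all named genes (horizontal axis). Muscle markers lie between -1.15 and -0.36, and all named genes between 0.01 and 0.03.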

How the data were processed

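The authors scanned the arrays with Feature Extraction (version 10.10.1.1 in the file headers, another version in the methods) and deposited log10 ratios of Cy5 over Cy3 after linear and lowess normalisation, with processed and raw intensity values. Marks of 0 or 1 (other columns deposited by the authors) flag spots above background, non-uniform or outlying. The series' value table held the same log10 ratios. Here, ratios were multiplied by 3.32. Control spots (1417 an array) and marked spots (11, 17, 32 and 15) were left out, spots of a probe averaged, and 27383 probes tested, those with 1 and the same channel well above background on each of the 4 arrays and values on 3 or more. The number of arrays limits the precision. An intercept was fitted with limma (version 3.58.1, R 4.3.3; empirical Bayes, two-sided), tested first on simulated data, and P values were adjusted over all tested probes by the Benjamini and Hochberg method, with the data.table package (version 1.17.8), Python 3.11.15, numpy 2.4.6, pandas 2.3.3 and matplotlib 3.10.9. Of 153 list genes, 124 matched by name, 23 by description or accession and 6 were not matched. RefSeq names and neighbours came from assembly TB-T2T. The genes named are all members, cell type markers, list genes past the threshold in some setting and list genes with a role beside a member, except for a few that are counted in their lists but not reported here. Members and lists were chosen with earlier results of these data known. Alternatives were normexp (offset 50) with loess, median centring without lowess, the methods' t-test (a student test, as a supplementary table says), a robust prior with an intensity trend, unpaired channels, channels with the array as block, no filter or a filter on both channels, marked spots kept, the value table, the mean of a gene's probes, and each array left out (at least 2 values).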

Additional observations from a re-analysis of the deposited data

Results flagged for a closer look

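In 57 groups of 4 array values looked at (member probes, list medians and called list genes), an array stood apart from the other arrays in 2. Chance alone flags about 1 in 20 such groups, or 2.85 of 57. The dimmer *DUSP10* probe had a ratio of -1.98 on array 4, whereas its ratios on the other arrays were between -0.93 and -0.76. The median of the fibroblast markers was 0.32 on array 1 and between -0.10 and -0.06 on the others.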

How the results depend on the processing

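The log2 ratios of the 7 tested members kept their sign in all 15 alternatives, except *DUSP1*, which turned to 0.0285 without lowess (adjusted P = 0.827) and to 0.0638 without replicate 4 (0.576), with a range of -0.094 to 0.0638 over the arrays left out. *DUSP10* passed in 13 of 15 alternatives (adjusted P between 0.00553 and 0.11 over all) and *MAPKAPK3* in 11 of 15 (between 0.00987 and 0.114), and no other member passed in any. The number of member genes past the threshold, 2, was 0 in the methods' t-test and 0 with no filter on dim probes, with 2 genes at an unadjusted P under 0.05 in both (2 in the main analysis, 4 without replicate 1), and member probes, 3, came to 0 and 0, with 3 at an unadjusted P under 0.05 in both. limma gave 2 genes and 3 probes in the main analysis. Without 1 array there were 1 to 2 genes and 2 to 3 probes, the lower values without replicate 2 and without replicate 3, where *MAPKAPK3* was lost. All probes past the threshold, 6257, came to 768 in the t-test, 2226 with separate channels and no block, and 3690 with no filter, in which 43603 probes entered the adjustment. They numbered 2573 to 4957 without 1 array, with 2573 without replicate 2 and 2705 without replicate 3. The genes of the pathway lists past it, 27, came to 2, 12 and 6 in these settings and 12 to 25 without 1 array, with 12 without replicate 2 and 15 without replicate 3. Of the probes past the threshold, 49.1% were higher with HMB, but 59.2% without lowess, 29.9% with separate channels and no block, and 36.4% without replicate 2. The array as replicate block gave the same counts as the ratios (6257, 2, 3 and 27), since a ratio already pairs the channels of an array. Other causes of these shifts were not tested. Signal over background limits *MAP2K6*, which entered the test only with no filter.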
